A study of Mus musculus with 12 samples.

Results

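The clones described here were chosen by their own abundance. Each was a productive TCRβ rearrangement with 10 or more templates both in CD8+ tumor-infiltrating lymphocytes (TILs) and in splenic CX3CR1+ CD8+ T cells of the same experiment. A total of 310 such shared expanded clones were found among 27406 productive rearrangements of the TIL and CX3CR1+ libraries, with 36, 99 and 175 in experiments A, B and C. Since the TIL and CX3CR1+ counts chose the clones, their values in these libraries are given as a description without a test.

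The data were TCRβ sequences from genomic DNA of female C57BL/6 mice that carried MC38, a colon carcinoma line. All groups were treated with both an anti-CTLA-4 Ab and an anti-PD-L1 Ab, so no untreated group was compared, and by the study's methods the mice were age-matched young adults. In each of 3 experiments 4 libraries were sequenced, namely the CD27lo CX3CR1-, CD27hi CX3CR1- and CX3CR1+ subsets of splenic CD8+ T cells (CX3CR1lo and CX3CR1hi in the labels) and CD8+ TILs. The study's methods give several mice per experiment and the files 1 library per group, so that the experiment was the replicate (n = 3) and neither the spread between mice nor the mouse of a clone can be read from the data. Productive templates ranged from 5893 in the TILs of experiment A to 113660 in the CX3CR1+ cells of experiment C, and 10 templates stood for 0.170%, 0.0807% and 0.0477% of the TILs but for 0.0179%, 0.0196% and 0.00880% of the CX3CR1+ cells in experiments A, B and C. The files hold rearranged DNA only, so that the sorted phenotypes could not be checked against marker genes.

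A T cell assembles its TCRβ gene from V, D and J segments, and enzymes trim the segment ends and insert non-templated nucleotides at both joints. The joined stretch encodes CDR3, the loop that mostly contacts the peptide on MHC, and daughter cells inherit the exact nucleotide sequence. A rearrangement with many inserted nucleotides that is found in 2 organs is therefore usually read as 1 clone, whereas a rearrangement with few can arise more than once. CX3CR1, the fractalkine receptor, marks CD8+ T cells of effector differentiation, while CD27, a costimulatory receptor, is high on naive and early memory cells.

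The sequences below are the CDR3 reads of the clones that were most abundant in both compartments, of those with the highest and lowest TIL to CX3CR1+ ratio and of those with most CD27lo CX3CR1- templates. A clone is named by its experiment and its rank by TIL templates among the shared expanded clones. Each read runs 5′ to 3′ from the conserved cysteine codon, capitals mark nucleotides inserted at the V to D and D to J joints, and the codon of the last CDR3 residue lies beyond the end of the read.
A1: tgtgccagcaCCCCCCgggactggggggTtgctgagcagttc
A5: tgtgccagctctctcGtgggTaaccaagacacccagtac
A8: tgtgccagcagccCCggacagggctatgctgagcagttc
A9: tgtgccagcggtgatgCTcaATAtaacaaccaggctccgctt
A29: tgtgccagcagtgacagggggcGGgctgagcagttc
B1: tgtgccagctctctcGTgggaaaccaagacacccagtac
B3: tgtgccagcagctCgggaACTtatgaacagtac
B12: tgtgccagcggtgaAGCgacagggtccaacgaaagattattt
B17: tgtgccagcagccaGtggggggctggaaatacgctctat
B73: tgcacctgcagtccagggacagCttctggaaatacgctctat
C1: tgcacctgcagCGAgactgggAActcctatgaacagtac
C2: tgtgccagcagtggggggAGGcagtac
C8: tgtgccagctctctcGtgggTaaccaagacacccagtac
C18: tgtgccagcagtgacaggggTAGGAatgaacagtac
C51: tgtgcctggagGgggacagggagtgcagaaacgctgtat
C52: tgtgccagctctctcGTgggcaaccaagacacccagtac
In these 16 reads the inserted stretch ran from 1 nucleotide in B17, B73 and C51 to 7 in A1. A5 and C8 were the same rearrangement, found in separate experiments.

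The shared expanded clones held most TIL templates. They made up 50.6%, 69.9% and 72.4% of productive TIL templates (experiments A to C), or 64.3% ± 11.9 (SD, n = 3). Clones with 10 or more templates in TILs alone numbered 30, 49 and 54 and held 10.9%, 9.76% and 10.6%. Thus 54.5%, 66.9% and 76.4% of all clones with 10 or more TIL templates also reached 10 in CX3CR1+ cells. Of the 133 clones expanded in TILs alone, 62 had no template in the CX3CR1+ library.

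The same clones were a smaller part of the CX3CR1+ cells. Their share of productive CX3CR1+ templates was 12.8%, 41.3% and 46.4% in experiments A, B and C, the lowest in the experiment with the fewest TIL templates. They were 6.12%, 19.3% and 17.0% of the clones with 10 or more CX3CR1+ templates, and the 1819 clones expanded in CX3CR1+ cells alone held 66.0%, 40.4% and 37.5%. Of those 1819 clones, 1237 had no TIL template.

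When TILs of an experiment were set against CX3CR1+ cells of another experiment with the same minimum, 1 to 9 rearrangements passed in each of the 6 crossed pairs, compared with 36, 99 and 175 in matched pairs.

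**Figure D1:**
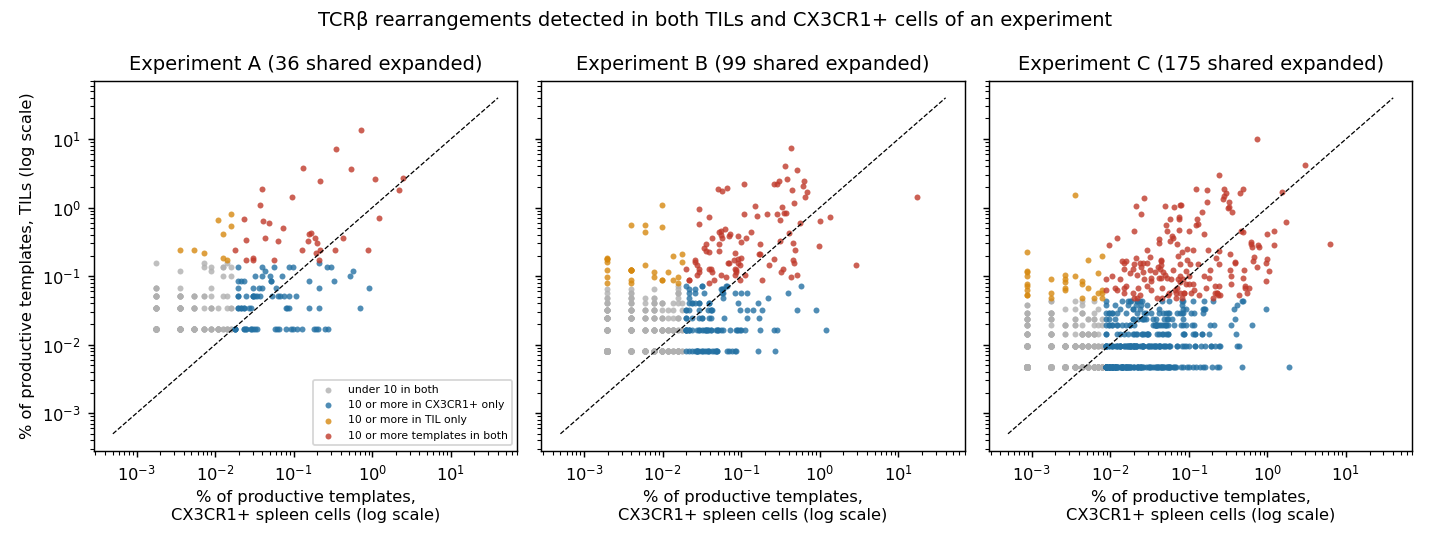
Each point is a productive rearrangement detected in both the TILs and the CX3CR1+ cells of an experiment, with its percent of productive CX3CR1+ templates on the x axis and of TIL templates on the y axis (both log scales, dashed line at equal percents). Colors mark whether 10 templates were reached in both libraries (36, 99 and 175 clones), in CX3CR1+ cells only, in TILs only or in neither.

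Large clones differed in how they were split between tumor and spleen. A1, a TCRBV19-01 and TCRBJ02-01 clone, had 801 TIL templates (13.6%), 404 CX3CR1+ templates (0.724%), 1 CD27lo CX3CR1- template and 2 CD27hi CX3CR1- templates. C1, with the CDR3 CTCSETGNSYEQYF, had 2091 TIL templates (9.98%), 848 CX3CR1+ templates (0.746%), 2 in CD27lo CX3CR1- and 3 in CD27hi CX3CR1- cells. B1, with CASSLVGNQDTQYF, had 921 TIL templates (7.43%), 221 CX3CR1+ templates (0.433%), 17 in CD27lo CX3CR1- and 1 in CD27hi CX3CR1- cells. These were the largest TIL clones of the set in their experiments, and each had a higher percent in TILs than in CX3CR1+ cells.

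Other clones were large in the spleen. B17, with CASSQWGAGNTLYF and the genes TCRBV05-01 and TCRBJ01-03, had 8948 CX3CR1+ templates (17.5% of that library) and 179 TIL templates (1.44%). It also had 78 CD27lo CX3CR1- templates (0.429%) and 93 CD27hi CX3CR1- templates (0.189%), and it held 42.4% of the CX3CR1+ templates of the 99 clones of experiment B. C51, with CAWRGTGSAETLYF, had 7191 CX3CR1+ templates (6.33%), 61 TIL templates (0.291%), 19 in CD27lo CX3CR1- and 27 in CD27hi CX3CR1- cells.

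A clone with at least 1% of templates in both compartments was found 6 times among the 310. C2, with the short CDR3 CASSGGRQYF and an unresolved J gene, had 871 TIL templates (4.16%) and 3439 CX3CR1+ templates (3.03%), with 6 in CD27lo CX3CR1- and 3 in CD27hi CX3CR1- cells. A5, with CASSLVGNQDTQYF, had 158 TIL (2.68%) and 1370 CX3CR1+ templates (2.46%), with 23 and 21 in the CD27lo and CD27hi CX3CR1- cells. A9, a TCRBV13-02 and TCRBJ01-05 clone, had 105 TIL (1.78%) and 1219 CX3CR1+ templates (2.19%), with 2 and 3. C8, the rearrangement of A5 in experiment C, had 354 TIL (1.69%) and 1733 CX3CR1+ templates (1.52%), with 12 and 4. The others were B17 and, named for this count alone, A6, a TCRBV13-01 and TCRBJ02-05 clone with 152 TIL (2.58%) and 613 CX3CR1+ templates (1.10%).

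The frequency in TILs over that in CX3CR1+ cells had a median of 5.35 (range 0.266 to 47.8) in experiment A, 3.15 (0.0502 to 36.7) in B and 2.21 (0.0460 to 50.6) in C, with a mean of medians of 3.57 ± 1.61 (SD, n = 3). The ratio was above 1 for 30 of 36, 81 of 99 and 112 of 175 clones. Among all rearrangements detected in both libraries it was above 1 for 80.8%, 74.6% and 57.8% in experiments A, B and C. The minimum of 10 templates was a higher percent in TILs than in CX3CR1+ cells, so a clone with 10 templates in both would have a ratio above 1. How far this bears on the medians was not tested. With a minimum of 0.1% of productive templates in both compartments, 130 clones remained and the mean of medians was 1.45 ± 0.705.

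By exact 95% intervals, which cover counting error only, the ratio lay wholly above 1 for 187 clones and wholly below 1 for 62 clones of 310. The same counts chose the clones, and the minimum was a higher percent in TILs than in CX3CR1+ cells, so these numbers are a description. They are given without a counterpart for all rearrangements detected in both libraries. The highest ratios were 47.8 (interval 30.03 to 79.3) for A8, with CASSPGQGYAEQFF, 36.7 (24.4 to 57.4) for B12, a TCRBV13-02 and TCRBJ01-04 clone, and 50.6 (33.2 to 80.7) for C18, with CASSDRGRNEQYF. A8 had 111 TIL and 22 CX3CR1+ templates, B12 had 232 and 26, and C18 had 224 and 24. None of these 3 clones had more than 2 templates in either CX3CR1- subset. The lowest ratios were 0.266 (0.144 to 0.451) for A29, with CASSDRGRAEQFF, 0.0502 (0.0297 to 0.0797) for B73, a TCRBV01-01 and TCRBJ01-03 clone, and 0.0460 (0.0352 to 0.0592) for C51. A29 had 14 TIL and 498 CX3CR1+ templates, and B73 had 18 and 1475.

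**Figure D2:**
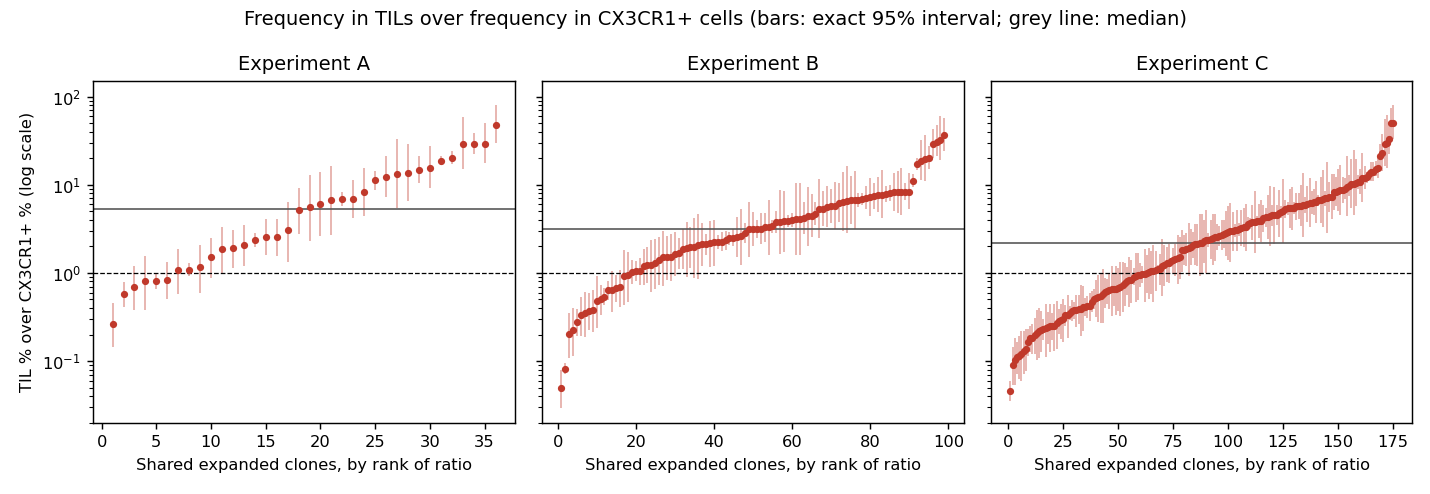
Each point is a shared expanded clone, ordered by its percent in TILs over its percent in CX3CR1+ cells (y axis, log scale), with the exact 95% interval from counting as a bar, 1 panel per experiment. The grey lines mark the medians of 5.35, 3.15 and 2.21, and the dashed lines mark equal percents.

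Across clones, TIL and CX3CR1+ templates had a Spearman correlation of 0.368 over 36 clones, 0.412 over 99 and 0.251 over 175. Clones of an experiment shared their libraries, and clones below the minimum were absent, so these values are a description. At the edge of the rule, 16 clones had exactly 10 templates in TILs or in CX3CR1+ cells. These had 10 to 19 TIL templates and 10 to 231 CX3CR1+ templates. Another 33 rearrangements had 9 templates in a compartment and at least 10 in the other, with up to 47 TIL and 554 CX3CR1+ templates.

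The CX3CR1- subsets of the spleen were not used to choose the clones. The shared expanded clones held 0.555% of productive CD27lo CX3CR1- templates in experiment A (102 of 18378; Wilson 95% interval 0.457% to 0.673%), 2.03% in B (369 templates; 1.83% to 2.25%) and 3.31% in C (715 templates; 3.08% to 3.55%). In CD27hi CX3CR1- cells they held 0.0908% (49 of 53946; 0.0687% to 0.120%), 0.580% (285 templates; 0.517% to 0.651%) and 0.457% (327 templates; 0.410% to 0.509%). The share was higher in the CD27lo subset in 3 of 3 experiments, by 1.59 ± 1.20 percentage points (SD, n = 3; two-sided exact sign-flip permutation p = 0.25, the smallest that 3 experiments allow). The Wilson intervals cover counting error only and treat templates as independent. In the CD27lo subset, however, 1 clone held 22.5%, 21.1% and 27.7% of the templates of the set in experiments A, B and C.

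Both shares were below those in CX3CR1+ cells, by 23.1-, 20.4- and 14.0-fold for the CD27lo subset and by 141-, 71.2- and 102-fold for the CD27hi subset in experiments A, B and C. CX3CR1+ templates chose the clones, so a higher share in CX3CR1+ cells is built into the rule and these folds are a description. For clones expanded in CX3CR1+ cells alone, also chosen by these templates, the CD27lo fold was 17.1, 21.5 and 22.4. For the shared expanded clones the CD27lo share was 6.11, 3.50 and 7.24 times the CD27hi share. For clones expanded in CX3CR1+ cells alone it was 3.31, 2.97 and 3.02 times, with CD27lo shares of 3.85%, 1.88% and 1.68% and CD27hi shares of 1.16%, 0.631% and 0.556%. The difference of these ratios between the classes was not tested. Leaving out the clone with most CD27lo templates in each experiment gave 8.28, 4.09 and 5.35 times for the shared expanded clones. How far a sort that lets CX3CR1+ cells through contributes to these shares was not tested.

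By clone, 20 of 36, 52 of 99 and 88 of 175 shared expanded clones had at least 1 template in the CD27lo subset, that is 55.6%, 52.5% and 50.3%. Of all clones with 10 or more CX3CR1+ templates, 33.8%, 34.1% and 23.7% did. Clones expanded in CX3CR1+ cells alone were detected at 32.4%, 29.7% and 18.3%, and the shared expanded clones exceeded them in 3 of 3 experiments, by 26.0 ± 5.21 percentage points (SD, n = 3; two-sided exact sign-flip permutation p = 0.25, the smallest possible).

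In the CD27hi subset 14 of 36, 57 of 99 and 83 of 175 were detected, that is 38.9%, 57.6% and 47.4%, compared with 36.4%, 37.6% and 28.6% of all clones with 10 or more CX3CR1+ templates. The shared expanded clones exceeded clones of CX3CR1+ cells alone (36.2%, 32.9% and 24.7%) in 3 of 3 experiments, by 16.7 ± 12.2 percentage points (SD, n = 3; two-sided exact sign-flip permutation p = 0.25). The experiments no longer had the same sign with a minimum of 20 templates, where the difference was 5.98 ± 21.4, with 0.1% of templates (0.315 ± 16.9) or with libraries at equal depth (1.47 ± 8.03). Neither CX3CR1- library showed 103 of the 310 clones, 53 were seen in the CD27lo library only, 47 in the CD27hi library only and 107 in both. The same joint counts are not given for the other clones of CX3CR1+ cells. Whether this split is particular to the set thus cannot be read from these values. A clone that was not seen could still hold up to 0.0163%, 0.0165% and 0.0139% of the CD27lo templates and 0.00556%, 0.00611% and 0.00419% of the CD27hi templates of experiments A, B and C, the limit that a count of 0 allows.

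The size of a clone in CX3CR1+ cells bears on these percents, since a larger clone is more easily detected. Among clones with 100 or more CX3CR1+ templates, 75.0%, 73.0% and 71.4% of shared expanded clones and 79.2%, 59.0% and 39.2% of clones of CX3CR1+ cells alone were seen in the CD27lo subset, so that the order was turned in experiment A. With 30 to 99 templates it was 66.7%, 45.2% and 29.5% against 40.3%, 32.4% and 22.8%. With 10 to 29 templates it was 18.2%, 35.5% and 33.3% against 19.4%, 24.5% and 13.1%. In the CD27hi subset it was 50.0%, 78.4% and 66.7% against 73.6%, 71.8% and 59.5% at 100 or more templates. At 30 to 99 it was 22.2%, 48.4% and 32.8% against 46.0%, 37.3% and 32.0%, and at 10 to 29 it was 36.4%, 41.9% and 23.3% against 24.3%, 25.6% and 16.3%. Thus among clones with 30 or more CX3CR1+ templates the shared expanded clones were detected more often in the CD27hi subset in experiments B and C, by as little as 32.8% against 32.0%, and less often in experiment A, where they numbered 9 and 16 in these size ranges. Within each size range the shared expanded clones still had the higher median of CX3CR1+ templates in each experiment. At 100 or more templates the medians were 215, 222 and 328 against 186, 166 and 174 in experiments A, B and C. The ranges thus did not bring the classes to equal size. The differences in detection within the ranges were not tested, nor was how much of them remains at equal size.

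**Figure D3:**
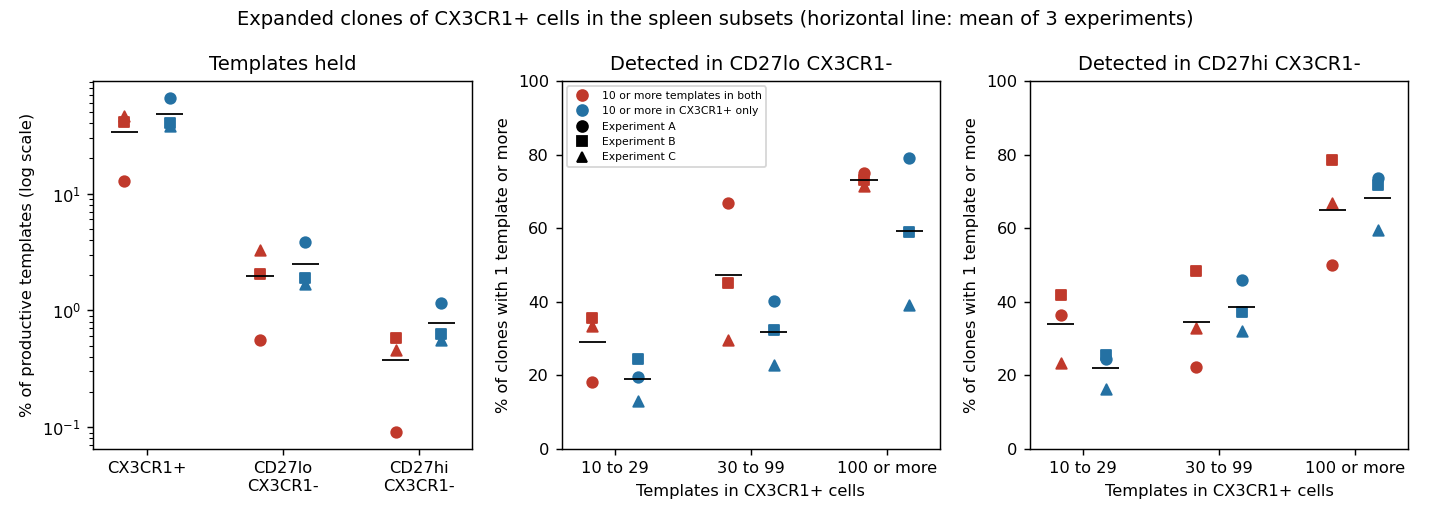
The left panel plots the percent of productive templates (log scale) of each splenic subset held by shared expanded clones (red) and by clones expanded in CX3CR1+ cells alone (blue), and the others plot the percent of clones with at least 1 template in the CD27lo or CD27hi CX3CR1- library by their CX3CR1+ templates. Symbols are experiments and lines are means of 3, and in the CD27lo subset red exceeded blue in all size ranges except for experiment A at 10 to 29 and at 100 or more templates, and in the CD27hi subset except for experiment A at 30 to 99 and at 100 or more.

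The clones that were large in the CX3CR1- subsets belonged to the set more often in experiments B and C than in experiment A, a difference given without a test. Membership was also rarer in experiment A among all clones with 10 or more CX3CR1+ templates (6.12%, 19.3% and 17.0% in experiments A, B and C). The minimum of 10 templates was 0.170%, 0.0807% and 0.0477% of the TILs. Of 63 rearrangements with 10 or more CD27lo CX3CR1- templates, 29 were shared expanded clones (3 of 21, 10 of 16 and 16 of 26 in experiments A, B and C), 18 were expanded in CX3CR1+ cells alone, 1 in TILs alone and 15 in neither. Of 40 such rearrangements in CD27hi CX3CR1- cells, 16 were shared expanded clones (1 of 15, 6 of 11 and 9 of 14), 16 were expanded in CX3CR1+ cells alone, 12 of them in experiment A, and 8 in neither. The most abundant in the CD27lo subset were A5 with 23 templates, B17 with 78 and C52 with 198. C52, with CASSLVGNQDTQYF, held 0.916% of the CD27lo templates of experiment C, 0.614% of the CX3CR1+ templates (698), 0.291% of the TIL templates (61) and 0.00978% of the CD27hi templates (7). It was the only 1 of the 310 clones with a higher percent in CD27lo CX3CR1- than in CX3CR1+ cells.

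Across clones, CD27lo templates had a Spearman correlation of 0.496, 0.475 and 0.544 with CX3CR1+ templates, and of 0.187, 0.331 and 0.326 with TIL templates. For CD27hi templates the values were 0.227, 0.427 and 0.493 with CX3CR1+ and -0.00670, 0.174 and 0.129 with TIL templates. The points of an experiment shared libraries and most CX3CR1- counts were 0 or 1, so that these too are a description.

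The 310 clones used 21 V genes and 12 J genes. The most used V gene was TCRBV19-01 with 43 clones, followed by TCRBV12-01 with 26, TCRBV03-01 with 24, TCRBV13-02 with 23 and TCRBV13-01 with 22. By their numbers these are Trbv19 (chromosome 6: 41178589 to 41179048), Trbv12-1 (41113567 to 41114067), Trbv3 (41048394 to 41048824), Trbv13-2 (41121396 to 41121832) and Trbv13-1 (41116036 to 41116468) of the TCRβ locus in the RefSeq annotation of GRCm38.p6, the mm10 assembly. The most used J genes were TCRBJ02-07 with 96 clones, TCRBJ02-01 with 57, TCRBJ02-05 with 28, and TCRBJ01-03 and TCRBJ01-04 with 19 each. On the same chromosome these are Trbj2-7 (41543810 to 41543856), Trbj2-1 (41542754 to 41542803), Trbj2-5 (41543453 to 41543501), Trbj1-3 (41534323 to 41534372) and Trbj1-4 (41534811 to 41534861).

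TCRBV19-01 was used by 19.4%, 7.07% and 16.6% of the shared expanded clones in experiments A, B and C. It was used by 9.24%, 9.42% and 7.85% of clones expanded in CX3CR1+ cells alone and by 6.67%, 10.2% and 16.7% of those expanded in TILs alone. Of all productive CD27hi CX3CR1- rearrangements, taken as a background repertoire, 7.26%, 7.36% and 7.48% used TCRBV19-01. Its use thus stood above clones of CX3CR1+ cells alone in experiments A and C and below in experiment B. The difference from the mean of both 1-compartment classes was 4.35 ± 7.12 percentage points (SD, n = 3; two-sided exact permutation p = 0.370, Benjamini-Hochberg adjusted p = 0.700 over 17 V genes). TCRBV19-01 clones held 32.1%, 6.73% and 9.31% of the TIL templates of the set, and A1 alone accounted for most of the first value.

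TCRBJ02-07 was used by 30.6%, 38.4% and 26.9% of shared expanded clones, by 30.4%, 25.6% and 23.6% of clones of CX3CR1+ cells alone and by 33.3%, 34.7% and 27.8% of clones of TILs alone, against 22.0%, 22.0% and 22.8% of CD27hi CX3CR1- rearrangements. The difference from the mean of the 1-compartment classes was 2.70 ± 4.96 percentage points (SD, n = 3; two-sided exact permutation p = 0.481). TCRBJ02-01 was used by 27.8%, 10.1% and 21.1% of the shared expanded clones, by 12.9%, 10.6% and 12.2% of clones of CX3CR1+ cells alone and by 23.3%, 22.4% and 25.9% of clones of TILs alone. Of 11 J genes, TCRBJ01-01, singled out after its value was seen, had the lowest p, with 2.78%, 4.04% and 5.71% of shared expanded clones, 6.70%, 9.18% and 11.0% of clones of CX3CR1+ cells alone and 3.33%, 6.12% and 11.1% of clones of TILs alone (exact permutation p = 0.037, adjusted p = 0.407). No V or J gene passed after adjustment, and with 3 experiments a single gene at the smallest p could not have passed.

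**Figure D4:**
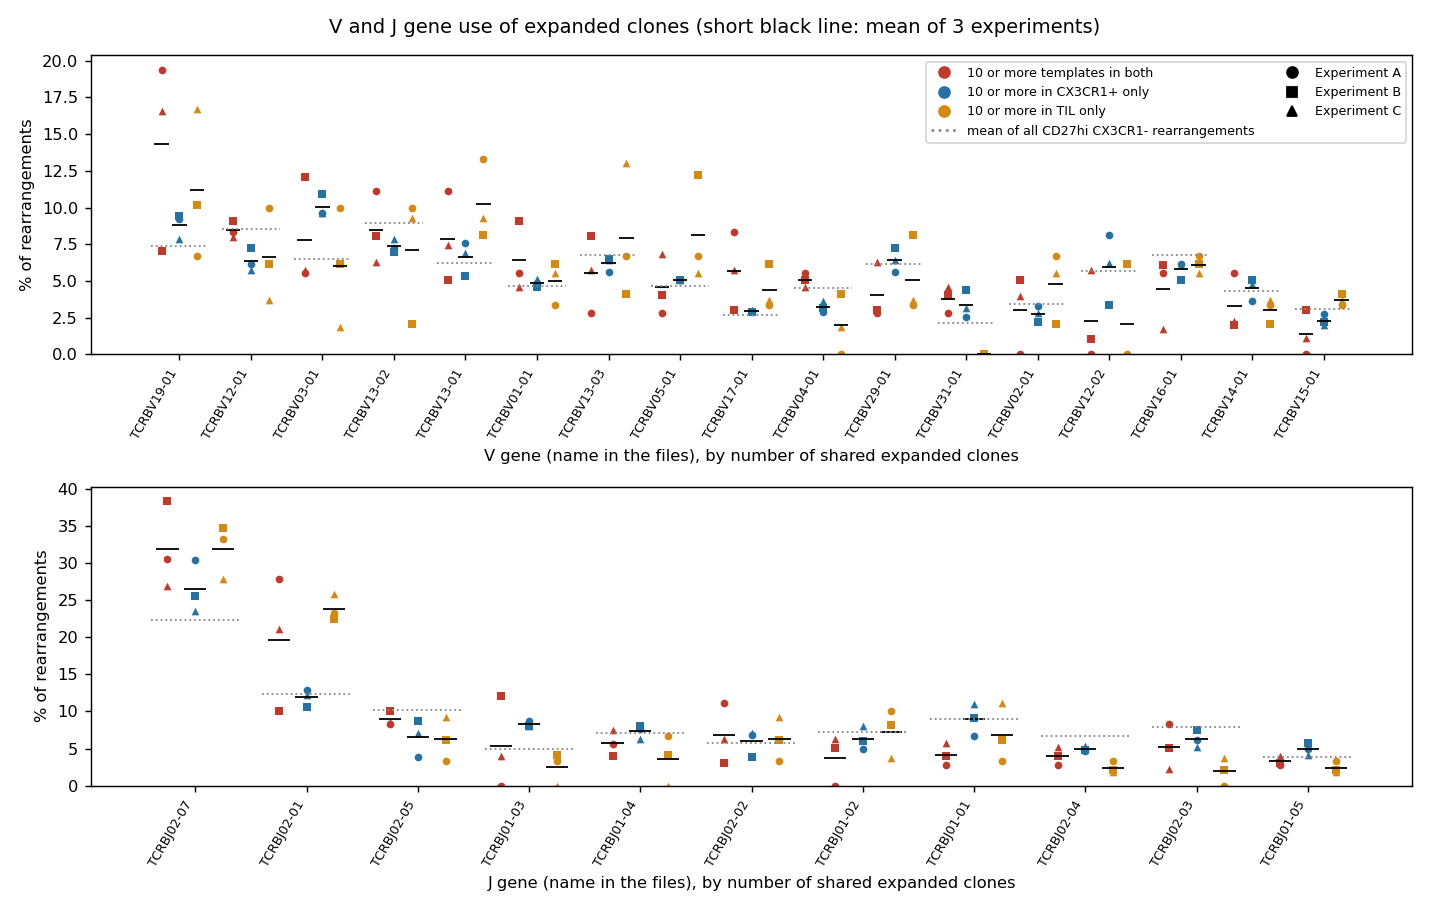
The percent of rearrangements with each V gene (top) and J gene (bottom) is plotted for shared expanded clones (red), clones expanded in CX3CR1+ cells alone (blue) and clones expanded in TILs alone (orange), with a symbol per experiment, a line at the mean of 3, and a dotted line at the mean of all CD27hi CX3CR1- rearrangements. TCRBV19-01 (19.4%, 7.07% and 16.6% of shared expanded clones) and TCRBJ02-01 (27.8%, 10.1% and 21.1%) were both lower in experiment B.

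Among V and J pairs, TCRBV19-01 with TCRBJ02-01 was the most used, by 25 clones (5, 2 and 18 in experiments A, B and C) with 21 CDR3 sequences. This pair was 8.06% of the shared expanded clones, 2.09% of clones of CX3CR1+ cells alone and 10.5% of clones of TILs alone. TCRBV12-01 with TCRBJ02-05 was used by 12 clones with only 3 CDR3 sequences, and these held 2.68%, 10.1% and 2.69% of all TIL templates.

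CDR3s of the shared expanded clones were 8 to 18 residues long. Their mean length was 42.2, 40.8 and 41.7 nucleotides, compared with 41.4 in each experiment for clones of CX3CR1+ cells alone and 42.0, 41.6 and 41.7 for clones of TILs alone, a difference from the mean of both of -0.02 ± 0.575 nucleotides (SD, n = 3; two-sided exact permutation p = 0.963). Inserted nucleotides averaged 3.33, 3.47 and 3.49, against 3.53, 3.47 and 3.37 and against 3.30, 3.65 and 3.30, a difference of -0.01 ± 0.135 (exact permutation p = 0.926). The size of these differences was well within the spread between experiments, and their direction changed with the minimum number of templates. CD27hi CX3CR1- rearrangements averaged 41.8 nucleotides in each experiment and 3.45, 3.44 and 3.53 inserted nucleotides.

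The TCRBJ02 group was used by 88.9%, 70.7% and 70.9% of shared expanded clones, 65.0%, 61.4% and 60.5% of clones of CX3CR1+ cells alone and 66.7%, 73.5% and 79.6% of clones of TILs alone. The difference from the mean of the 1-compartment classes was 9.04 ± 12.2 percentage points (SD, n = 3; exact permutation p = 0.222, adjusted p = 0.889 over 4 features). It was 2.05 percentage points without experiment A and 2.08 with a minimum of 5 templates. Against clones of CX3CR1+ cells alone the share was higher in 3 of 3 experiments, and against clones of TILs alone in 1 of 3. Kyte-Doolittle hydropathy of the CDR3 core, the residues left after removing 4 at each end, averaged -0.84, -1.05 and -1.08, against -1.08, -1.09 and -1.08 and against -0.96, -0.67 and -0.97 (higher values are more hydrophobic). The difference was -0.01 ± 0.175 (exact permutation p = 1.00).

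The mean glycine, basic and acidic shares of the core were close to those of clones of CX3CR1+ cells alone. The aromatic share was higher than in that class in each experiment, with 9.63%, 9.19% and 9.58% against 9.13%, 8.21% and 8.07%. Glycine was 23.0% ± 0.927 of core residues in shared expanded clones, 22.8% ± 0.476 in clones of CX3CR1+ cells alone and 26.5% ± 1.79 in clones of TILs alone. Basic residues (K and R) were 8.23% ± 1.16, 8.24% ± 0.0434 and 5.10% ± 0.437, acidic residues (D and E) 11.2% ± 1.11, 11.2% ± 0.386 and 9.75% ± 0.309, and aromatic residues (F, W and Y) 9.47% ± 0.243, 8.47% ± 0.575 and 10.8% ± 2.67 (SD, n = 3 each). These shares were not tested.

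**Figure D5:**
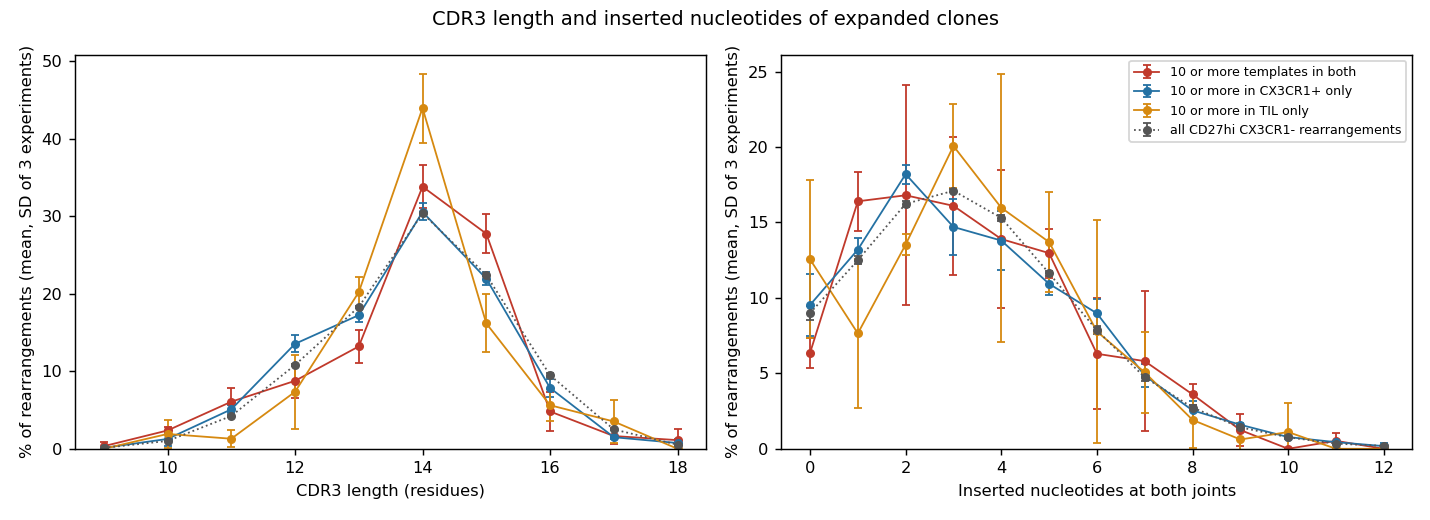
The percent of rearrangements is plotted by CDR3 length in residues (left) and by inserted nucleotides at both joints (right), as the mean of 3 experiments with SD bars, for the 3 classes of expanded clones and for all CD27hi CX3CR1- rearrangements. The most frequent length was 14 residues in each class, with 33.8% of shared expanded clones, 30.6% of clones of CX3CR1+ cells alone and 43.9% of clones of TILs alone.

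The 310 entries were 306 distinct rearrangements and 269 distinct CDR3 amino acid sequences. Of these CDR3s, 22 were shared expanded in at least 2 experiments and 4 in all 3, namely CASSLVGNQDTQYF, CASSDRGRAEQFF, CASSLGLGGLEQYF and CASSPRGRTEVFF. In 18 of the 22 the experiments used different rearrangements throughout. Several rearrangements of a CDR3 were also found within an experiment, for 9 CDR3s.

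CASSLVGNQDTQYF, encoded by TCRBV12-01 and TCRBJ02-05, was carried by 8 of the 310 entries and 7 distinct rearrangements. The rearrangements not shown above are printed to let the joints be compared.
B18: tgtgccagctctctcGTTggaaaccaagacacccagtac
B32: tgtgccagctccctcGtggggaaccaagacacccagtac
B35: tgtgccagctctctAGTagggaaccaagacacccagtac
C123: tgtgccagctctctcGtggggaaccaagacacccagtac
With A5, B1, C8 and C52 these differed mostly at the joints, where 1 to 3 nucleotides were inserted, and B32 also differed within its V part. The shared expanded clones with this CDR3 held 2.68% (1 clone), 9.65% (4 clones) and 2.07% (3 clones) of TIL templates, by experiment. In CX3CR1+ cells they held 2.46%, 1.51% and 2.21%, and in CD27lo CX3CR1- cells 0.125%, 0.215% and 0.971%. In experiment B their ratios ran from 1.05 for B32 (73 TIL and 286 CX3CR1+ templates) and 2.52 for B18 (145 and 237) to 8.38 for B35 (57 and 28) and 17.2 for B1. In experiment C they were 0.474 for C52, 1.11 for C8 and 1.24 for C123 (19 and 83). Rearrangements that encode the same CDR3 thus had ratios far apart in experiment B. In experiment C those of C8 and C123 were close, while that of C52 was lower. Exact 95% intervals were 0.801 to 1.36 for B32, 2.03 to 3.11 for B18, 5.24 to 13.7 for B35 and 14.8 to 19.96 for B1. They cover counting error only, and the same counts chose the clones, so these ratios are a description.

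The other recurrent CDR3s with the highest TIL percents also varied between experiments. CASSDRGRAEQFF, from TCRBV13-03 and TCRBJ02-01, was carried in each experiment by another rearrangement, A29 above and the following.
B9: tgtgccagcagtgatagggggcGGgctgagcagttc
C25: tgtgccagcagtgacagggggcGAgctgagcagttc
The TIL and CX3CR1+ templates were 14 and 498 for A29, 270 and 55 for B9 and 171 and 28 for C25, with ratios of 0.266, 20.2 and 33.1. The same CDR3 thus had the lowest ratio of experiment A and was among the high ratios of experiments B and C. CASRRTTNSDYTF, from TCRBV29-01 and TCRBJ01-02, had 494 TIL and 183 CX3CR1+ templates in experiment B (ratio 11.1) and 387 and 139 in experiment C (ratio 15.1), and differed between them at the first joint.
B2: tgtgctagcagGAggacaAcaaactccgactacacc
C5: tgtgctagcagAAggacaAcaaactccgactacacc
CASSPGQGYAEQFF, from TCRBV05-01 and TCRBJ02-01, was A8 in experiment A and C20 in experiment C, where it had 212 TIL and 74 CX3CR1+ templates (ratio 15.5), and neither had a template in the CX3CR1- subsets.
C20: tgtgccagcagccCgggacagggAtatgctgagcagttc
A CDR3 of 15 residues from TCRBV17-01 and TCRBJ02-02 was carried by A2 and A36 in experiment A and by B4 in experiment B.
A2: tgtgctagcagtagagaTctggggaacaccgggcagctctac
A36: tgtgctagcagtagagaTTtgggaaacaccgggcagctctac
B4: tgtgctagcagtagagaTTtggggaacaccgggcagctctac
A2 had 417 TIL and 194 CX3CR1+ templates (ratio 20.3) and none in the CX3CR1- subsets, A36 had 10 and 31 (ratio 3.05) with 9 in the CD27lo subset, and B4 had 322 and 196 (ratio 6.76) with 12. A9, of experiment A, and C3, of experiment C, also shared a 15-residue CDR3, with ratios of 0.815 and 12.2 (623 TIL and 277 CX3CR1+ templates for C3).
C3: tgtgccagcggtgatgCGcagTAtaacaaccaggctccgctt

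Recurrent CDR3s made up 14 of 36, 22 of 99 and 25 of 175 shared expanded clones and held 19.4%, 24.4% and 15.4% of TIL templates and 6.88%, 5.00% and 9.06% of CX3CR1+ templates in experiments A, B and C. They had fewer inserted nucleotides than the other clones of the set, with means of 2.43, 2.77 and 2.56 against 3.91, 3.68 and 3.64. Their median ratios were 4.59, 2.39 and 2.96 against 5.35, 3.17 and 2.19. In the CD27lo subset 57.1%, 72.7% and 76.0% of them were detected against 54.5%, 46.8% and 46.0% of the others. These differences were not tested, since recurrence was defined on the same counts as the set.

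Only 4 rearrangements were shared expanded in 2 experiments, and none in 3. Whether the same rearrangement arose separately in each or was carried over between libraries was not tested. Besides A5 and C8 these were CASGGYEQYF, with no inserted nucleotide, as B22 (105 TIL and 191 CX3CR1+ templates) and C17 (228 and 88), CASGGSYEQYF, with 1, as A22 (20 and 14) and C55 (59 and 1384), and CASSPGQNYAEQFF, with 2, as B81 (16 and 43) and C106 (23 and 20). Any template in a library of another experiment was found for 45 of the 310 clones (14.5%). This share was 26 of 70 clones (37.1%) with 0 to 1 inserted nucleotides, 13 of 101 (12.9%) with 2 to 3, 6 of 108 (5.56%) with 4 to 6 and 0 of 31 with 7 or more. The same shares are not given for the other classes or for all rearrangements. Whether they are particular to the set thus cannot be read from these values.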

How the data were processed

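DNA from sorted splenic CD8+ subsets and TILs was amplified with the ImmunoSEQ TCRβ assay at survey level and sequenced on a NextSeq. The authors deposited processed rearrangements with template counts, V and J names, CDR3 length and inserted nucleotides; the aligner is not given in the sources used here, and mm10 is the build in the submitters' processing notes. The deposited counts equalled the deposited estimated genome numbers in each row. Counts come from PCR without molecular identifiers described in these sources, so intervals cover counting error only.

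Only in-frame rearrangements without a stop were used, as in the study, with percents taken over productive templates. Clonotypes were exact nucleotide sequences. Inserted nucleotides were summed over both joints, and positions from the deposited indices fitted the inserted lengths in 100% of productive rows. The other classes had 10 or more templates in only CX3CR1+ cells or only TILs. Exact tests flipped signs over 3 experiments (8 arrangements, smallest p 0.25) or exchanged the 3 classes within experiments (27 arrangements, smallest p 0.037); p-values were adjusted by Benjamini-Hochberg over 4 features and over genes used by at least 5 clones. Each clone counted equally. Experiments paired the libraries (replicate block), as tumors and spleens came from the same experiment. TILs and CX3CR1+ cells of the same experiment shared 36 to 175 expanded rearrangements, those of different experiments 1 to 9. This comparison does not cover the CD27lo and CD27hi CX3CR1- libraries.

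Clones named were, per experiment, the 3 with the highest geometric mean of TIL and CX3CR1+ percents, the highest and lowest ratio and the most CD27lo templates, and recurrent CDR3s, the 6 with the highest mean TIL percent, and for genes the 5 most used V and J. CDR3s above 14 residues are given by nucleotides only. The members and the lists were chosen with earlier results of these data known. Alternatives were minimums of 5 and 20 templates and 0.1%, CDR3 amino acid clonotypes, equal depth (5893 templates), all templates as denominator, no replicate block and each experiment left out. Python 3.11.15, numpy 2.4.6, pandas 2.3.3, scipy 1.17.1, Biopython 1.88 and networkx 3.6.1 were used, and the tests were tried on simulated data.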

Additional observations from a re-analysis of the deposited data

Results flagged for a closer look

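Non-productive rearrangements, which the comparisons leave out, also reached 10 templates in both TILs and CX3CR1+ cells of an experiment. They numbered 17, 31 and 76 in experiments A, B and C, and 0 in each of the 6 crossed pairs of experiments. They held 8.48%, 16.5% and 21.3% of all TIL templates and 3.60%, 13.8% and 20.8% of all CX3CR1+ templates. The largest had 14919 CX3CR1+ templates in experiment C. Which productive clones they belong to was not tested, since bulk sequencing does not pair the rearrangements of a cell.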

How the results depend on the processing

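The number of shared expanded clones was 506 with a minimum of 5 templates, 192 with 20, 130 with 0.1% of templates, 90 with every library drawn to 5893 templates, and 135 (without experiment C) to 274 (without experiment A) when an experiment was left out. The mean of median ratios fell from 3.57 to 1.45 with the 0.1% minimum and to 1.68 at equal depth, and was between 2.68 and 4.25 when an experiment was left out. The number of CDR3s that were shared expanded in several experiments, an alternative chosen after seeing the data, was 13 with a minimum of 20, 9 with 0.1%, 4 at equal depth and 8 to 13 when an experiment was left out. The CDR3 length difference turned to 0.27 nucleotides with a minimum of 5, 0.54 with 20 and 0.15 with 0.1%, and ran from -0.25 to 0.30 when an experiment was left out. The difference in inserted nucleotides turned to 0.0799 with a minimum of 5, 0.0789 with 20 and 0.0959 by CDR3 amino acid clonotype, and ran from -0.0839 to 0.0356 when an experiment was left out. The hydropathy difference turned to 0.0039 with a minimum of 5 and ran from -0.109 to 0.0625 when an experiment was left out. The TCRBJ02-07 difference turned to -0.068 percentage points with a minimum of 5, and ran from -0.0711 to 4.71 when an experiment was left out. The TCRBV19-01 difference was 6.23 points by CDR3 amino acid clonotype (exact permutation p = 0.037, unadjusted) and 0.785 to 7.90 when an experiment was left out. The cause of these changes was not tested. The CD27lo minus CD27hi share and the CD27lo detection difference kept their direction under all alternatives run, the first with 0.957 points without experiment C and 2.15 without experiment A. The CD27hi detection difference kept a positive mean but lost its direction in 3 of 3 experiments, with 0.315 ± 16.9 points (exact permutation p = 1.00) with the 0.1% minimum, 1.47 ± 8.03 (p = 0.75) at equal depth and 5.98 ± 21.4 (p = 1.00) with a minimum of 20 (SD, n = 3). The TCRBJ02 difference fell from 9.04 to 2.08 points with a minimum of 5 and to 2.05 without experiment A. Fitted without the replicate block, the CD27lo detection difference of 26.0 points had an exact permutation p of 0.1, that of the CD27hi difference of 16.7 points 0.1 and that of the share difference of 1.59 points 0.2. No call changed without the block. The depth of the TIL libraries, the lowest of the 4 groups, limits which clones can reach 10 templates.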

Other observations

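Some CDR3s of the set were near-identical. Among pairs of distinct CDR3s of shared expanded clones, 1.61 per 1000 within experiments (30 of 18661) and 1.78 per 1000 between experiments (44 of 24674) had the same length and differed by 1 residue. For clones of CX3CR1+ cells alone the values were 0.338 and 0.384 per 1000, and for clones of TILs alone 3.47 and 4.18 per 1000. These values pool the experiments. Within single experiments they ran from 0 (experiment A, 0 of 595 pairs) to 2.75 for shared expanded clones. The ranges were 0.302 to 0.398 for clones of CX3CR1+ cells alone and 0 to 4.71 for clones of TILs alone. Between experiments the ranges were 1.21 to 2.13, 0.355 to 0.467 and 0.680 to 6.81. Pairs share CDR3s and no test was made.

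Linking such neighbours, a grouping made after the sequences were seen, joined 44 of 269 CDR3s, with 4 families of at least 3 CDR3s. A family of 14 residues with the form of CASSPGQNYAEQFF, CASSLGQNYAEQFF and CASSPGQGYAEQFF held 12 clones (2, 3 and 7 in experiments A, B and C), all with TCRBJ02-01 and 8 with TCRBV19-01. It held 2.99%, 1.17% and 3.49% of TIL templates and 0.0771%, 0.351% and 1.11% of CX3CR1+ templates. A family with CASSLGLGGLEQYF and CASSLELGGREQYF held 7 clones (2, 3 and 2), all with TCRBJ02-07 and with TCRBV12-01, TCRBV03-01 or TCRBV16-01, and held 4.50%, 4.12% and 0.716% of TIL templates. A family of 7 CDR3s of 15 residues used TCRBV03-01 in all 9 clones and was found in experiments B (5 clones) and C (4 clones), with 0.831% and 0.644% of TIL templates and 0.712% and 3.31% of CX3CR1+ templates. A family with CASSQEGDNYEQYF, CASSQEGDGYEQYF and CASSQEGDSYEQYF used TCRBV02-01 and TCRBJ02-07 in 5 clones of experiments B (2 clones) and C (3 clones).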
